A study of Mus musculus with 18 samples.

Results

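Mitochondrially encoded genes were examined in natural killer (NK) cells, type 1 innate lymphoid cells (ILC1) and macrophages sorted from mouse livers carrying colon carcinoma metastases. All genes whose symbol starts with mt- were taken as members. The rule found 37 of the 54309 genes in the lymphocyte count table and 15 of the 13759 genes in the macrophage count table. The 37 members comprised 13 protein-coding genes, 2 ribosomal RNA (rRNA) genes and 22 transfer RNA (tRNA) genes, and the 15 members of the macrophage table were the 13 protein-coding and the 2 rRNA genes. Every animal was a young adult female C57BL6/J mouse in which MC38 cells, a mouse colon carcinoma line, had been injected into the spleen to seed the liver. No library came from a tumor-free mouse, and no gene had been targeted.

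Bulk RNA was sequenced from 18 libraries, 3 for each of 6 sorted populations. NK cells of the metastasis-free liver (MFL NK) and NK cells of the liver metastasis (LM CD49a- NK) shared the gate live lin- CD45+ NKp46+ CD49a- CD49b+. ILC1 were sorted from the metastasis-free liver (MFL ILC1) as CD49a+ CD49b- cells, and LM CD49a+ NK cells were sorted from the metastasis as CD49a+ CD49b+ cells. Each lymphocyte sort pooled cells from 6 to 8 samples, so each replicate was a pool and not a single mouse. Metastasis-associated macrophages (MAMs) were sorted from the metastasis as CD45+ CD11b+ cells that stained high (F4/80hi) or at an intermediate level, called low in the labels (F4/80int), for the macrophage marker F4/80. Metastases were digested with enzymes and metastasis-free livers were mashed, so site and dissociation cannot be told apart. No library was labelled as sharing animals with another, and p-values measure the spread between these libraries.

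Mitochondrial DNA is a small circular genome present in many copies per cell. It encodes the RNA of the mitochondrial ribosome, the tRNAs needed to read its code, and a few hydrophobic core subunits of respiratory complexes I, III, IV and V, whereas the remaining subunits are encoded in the nucleus. Both strands are transcribed as long precursors that are cut at the tRNAs between the genes, so levels of the mature RNAs also depend on processing and stability. Pieces of mitochondrial DNA have been copied into the nuclear genome during evolution, and reads from a recent nuclear copy and from the mitochondrial gene can be the same letters.

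Of the 13 protein-coding members, 5 had an annotated nuclear copy that covered at least 80% of the gene at 99% identity or more, and these copies lay within chr1:24650616-24655278 of GRCm39 on the minus strand. The copy of mt-Atp6, a subunit of the proton channel of ATP synthase, is Atp6-ps and matched 678 of its 681 bases with 0 differences. The copy of mt-Co2, the complex IV subunit that takes electrons from cytochrome c, is Gm28661 and matched 681 of 684 bases with 0 differences. For mt-Co3, a core subunit of complex IV, Gm28437 matched 783 of 784 bases, and for mt-Nd4l, a membrane subunit of complex I, Gm10222 matched 294 of 297 bases, both with 0 differences. For mt-Nd3, another membrane subunit of complex I, Gm28438 matched 345 of 348 bases with the single difference T3C, counted from 1 at the first base of mt-Nd3. The sequences below are shown because they carry the same letters in a member and its copy. The ends of mt-Atp6 (chrM:8548-8607, plus strand) and mt-Co2 (chrM:7637-7696, plus strand) stand beside Atp6-ps (chr1:24653055-24653111, minus strand) and Gm28661 (chr1:24653966-24654022, minus strand), with capitals marking the bases beyond the annotated copy, and the starts of mt-Nd3 (chrM:9459-9518, plus strand) and Gm28438 (chr1:24652141-24652200, minus strand) follow, with the differing base in capitals.
mt-Atp6: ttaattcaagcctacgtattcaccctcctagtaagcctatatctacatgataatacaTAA
Atp6-ps: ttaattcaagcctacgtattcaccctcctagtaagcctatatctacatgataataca
mt-Co2: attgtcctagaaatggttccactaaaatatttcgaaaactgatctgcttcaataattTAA
Gm28661: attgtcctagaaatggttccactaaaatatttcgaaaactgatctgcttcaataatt
mt-Nd3: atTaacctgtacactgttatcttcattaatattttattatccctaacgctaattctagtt
Gm28438: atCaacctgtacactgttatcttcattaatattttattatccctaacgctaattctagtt

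In the lymphocyte table the counts of these members sat partly or wholly on the nuclear copies. mt-Co2 was listed at 0 in all 12 libraries, whereas Gm28661 held 1791 to 20657 counts. mt-Atp6 held 1592 to 2293 counts in the 6 MFL libraries and was listed at 0 in the 6 LM libraries, whereas Atp6-ps held 5392 to 28502 counts in MFL and 2960 to 15615 in LM. The copy therefore took 71.4% to 94.0% of the pair's counts in MFL and 100% in LM. mt-Co3 was listed at 0 in 2 libraries, mt-Nd3 in 3 (all of them LM) and mt-Nd4l in 6. After each member was summed with its copy, no protein-coding member remained at 0 in any library. The 22 tRNA members were listed at 0 in all 12 libraries, and no tRNA member was in the macrophage table. Other nuclear copies carried few counts: Gm29216, which matches part of mt-Co1, held at most 0.0974% of the mt-Co1 count in lymphocytes and 2.24% in MAMs, and Gm28439, which matches 876 of the 1378 bases of mt-Nd4, was listed at 0 in all lymphocytes.

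In MAMs the split was different. Gm28661 held 9.7% to 27.1% of the mt-Co2 pair, Gm28437 held 23.5% to 54.0% of the mt-Co3 pair, and Gm28438 held 55.6% to 86.3% of the mt-Nd3 pair. Gm10222 held 0% to 46.1% of the mt-Nd4l pair, and Atp6-ps was not listed in this table. The 2 tables were made with different versions of the counting program and are not compared by test. Levels of these 5 members are therefore given below as the sum of the member and its copy, as CPM, a count divided by the TMM-scaled (trimmed mean of M-values) library total and given per 1e6 counts, unless stated as deposited.

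**Figure D1:**
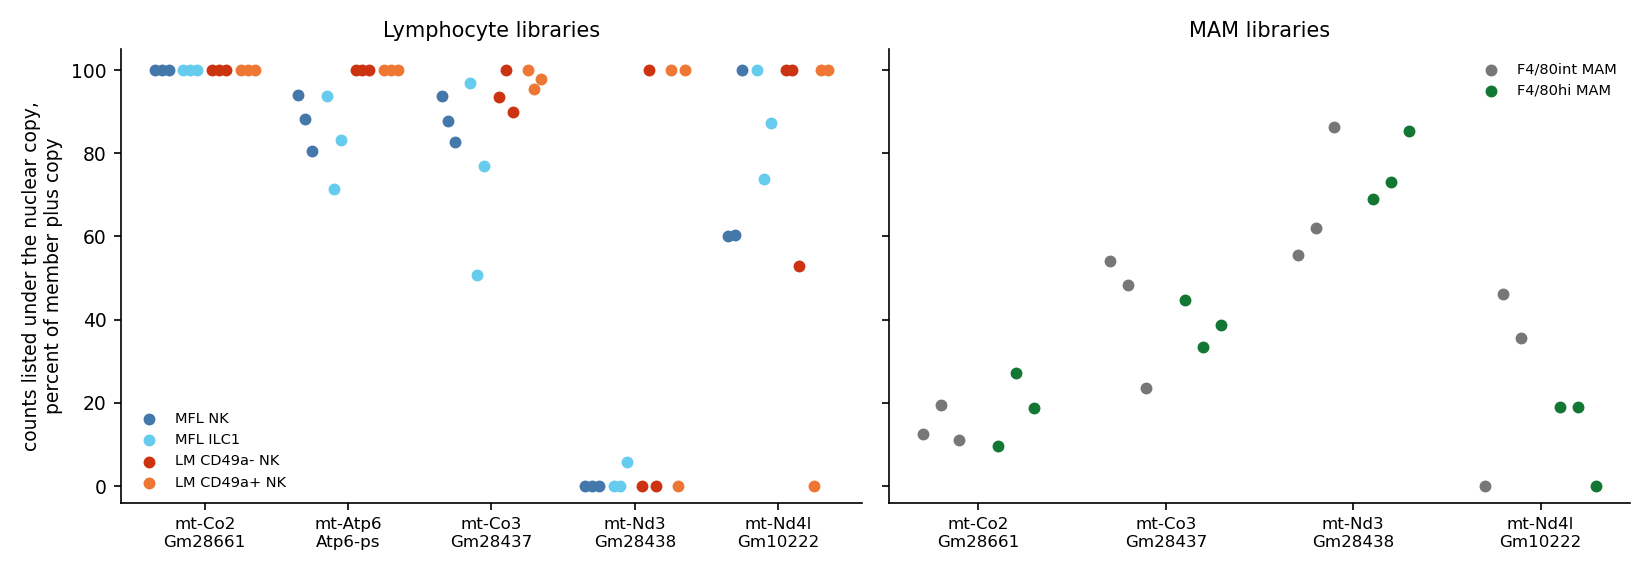
Counts listed under the nuclear copy in percent of member plus copy (vertical axis), for each member with a near full-length copy, in the lymphocyte (left) and MAM (right) libraries (points are libraries, colored by population). The mt-Atp6 pair reached 100% in every LM library and lay between 71.4% and 94.0% in MFL, and the mt-Co2 pair was at 100% in all 12 lymphocyte libraries.

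Mitochondrial RNA varied as much between replicates as between populations in lymphocytes. The rRNA members took 1.95% to 12.5% of all counts and the protein-coding members with their copies took 0.322% to 2.46%. By replicate, the protein-coding share was 1.79%, 0.872% and 0.751% in MFL NK and 2.46%, 0.592% and 0.999% in MFL ILC1. In LM CD49a- NK it was 0.850%, 0.322% and 0.936%, and in LM CD49a+ NK it was 0.917%, 0.448% and 0.783%. Replicate 1 of both MFL populations stood above all other libraries, and the range of the remaining MFL libraries overlapped that of the LM libraries. The means were 1.24% ± 0.726 (SD, n = 6) in MFL and 0.709% ± 0.260 (SD, n = 6) in LM. In bulk samples, fewer cells of a type and less RNA per cell cannot be told apart. Hepatocyte markers (6 of 6 listed, Alb foremost) had their highest sums in the same replicate 1 libraries of MFL NK and MFL ILC1. These sums were 108 and 80.6 CPM, against 18.4 to 47.5 CPM in the other MFL libraries. In LM the sum was 0 to 13.1 CPM, and Cyp2e1 was listed at 0 in all 6 libraries. In MFL NK replicate 1 each of the 6 markers was higher than in the other MFL NK libraries. In MFL ILC1 replicate 1 only Alb (63.8 CPM) and Fgb (14.1 CPM) were the highest of that population. There, Cyp2e1 and Serpina1c were listed at 0, and Apoa1 and Ttr were the lowest of the MFL ILC1 libraries. The part of hepatocyte RNA in the mitochondrial share was not tested.

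In MAMs the balance was reversed, with far fewer rRNA than protein-coding counts, while the protein-coding share lay within the lymphocyte range. The rRNA members took 0.0172% to 0.026% of counts. The protein-coding share with copies was 1.12%, 1.29% and 1.17% in F4/80int and 1.83%, 1.58% and 1.67% in F4/80hi, and these ranges did not overlap. For every 100 rRNA counts there were 4485 to 4974 protein-coding counts in F4/80int and 8527 to 9684 in F4/80hi. In lymphocytes the same ratio was 13.1 to 19.7. The lymphocyte libraries were made from total RNA and the MAM libraries from poly(A)-selected RNA, so cell type and library chemistry cannot be told apart in this contrast.

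**Figure D2:**
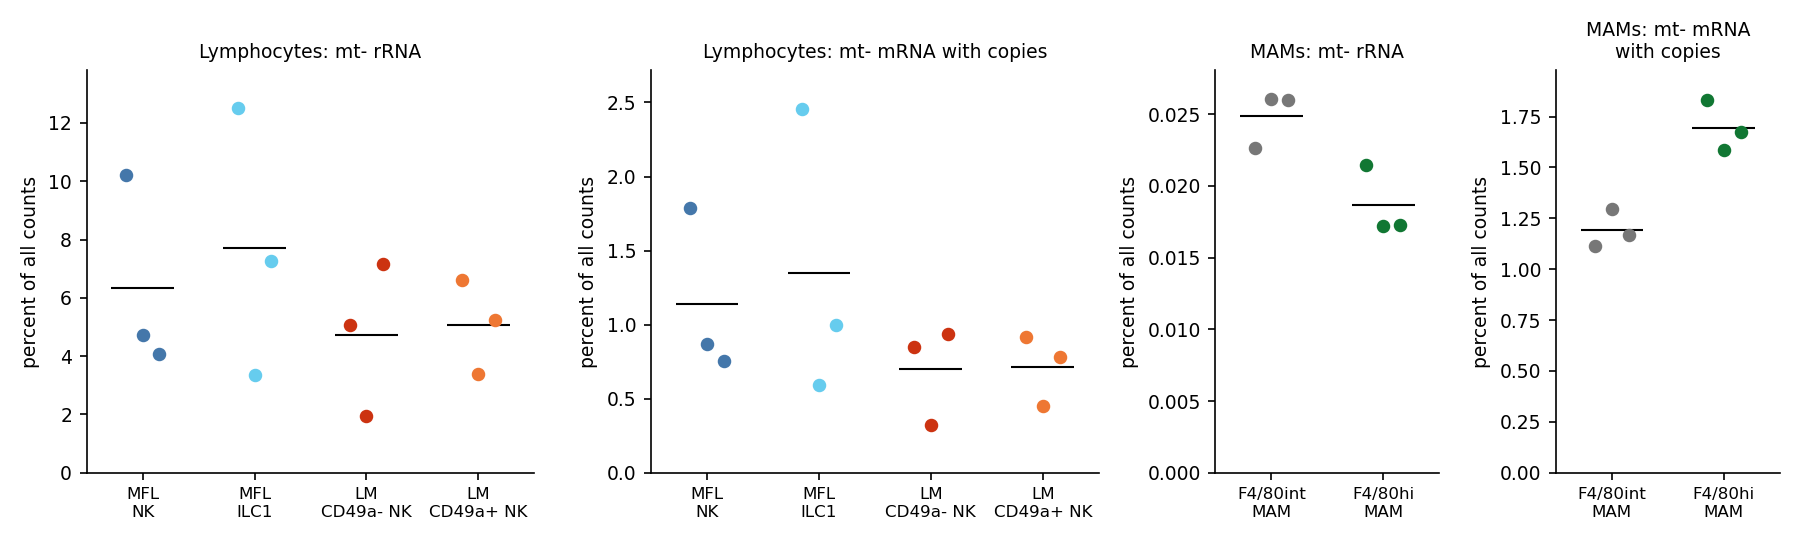
Percent of all counts in each library taken by the rRNA members and by the protein-coding members with their nuclear copies (points are libraries, horizontal bars are means of 3). Replicate 1 of MFL NK and MFL ILC1 lie highest among lymphocytes, and all F4/80hi libraries lie above all F4/80int libraries for the protein-coding share.

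As deposited, 14 of the 37 members passed the filter on low counts in lymphocytes (12 protein-coding and both rRNAs), and mt-Co2 and the 22 tRNAs did not. A gene was called at a Benjamini-Hochberg adjusted p under 0.1 in the edgeR quasi-likelihood test over all genes. mt-Atp6 was the only member called in any lymphocyte comparison, and it was called lower in LM in each of the 4 that set LM against MFL. Its deposited level was 130, 119 and 168 CPM in MFL NK and 163, 158 and 177 CPM in MFL ILC1, and it was listed at 0 in all 6 LM libraries. Against a floor of 3 counts per library this was at least 462.5-fold lower in LM CD49a- NK and at least 507-fold lower in LM CD49a+ NK than in MFL NK, and at least 604-fold lower in LM CD49a+ NK than in MFL ILC1. The edgeR adjusted p-values were 1.75e-07, 1.57e-07 and 1.22e-07, and 1.66e-09 for LM over MFL as the mean of both CD49a states. Among all 13594 genes tested, 0.0736%, 0.647%, 3.58% and 3.13% were called in these 4 comparisons.

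This call was absent from the sum of mt-Atp6 and Atp6-ps. The summed level was 2154, 1014 and 862 CPM in MFL NK, 2582, 553 and 1049 CPM in MFL ILC1, 978, 328 and 1230 CPM in LM CD49a- NK and 1015, 450 and 979 CPM in LM CD49a+ NK. Replicate 1 of both MFL populations was highest and the other libraries overlapped between sites. LM over MFL was -0.72 on the log2 scale (SE 0.37, edgeR adjusted p = 0.423). In the other 3 comparisons the adjusted p-values of the edgeR test were 0.927, 0.837 and 0.601.

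With members and copies summed, 15 members were tested (13 protein-coding) and 0 were called in each of the 7 lymphocyte comparisons, also with DESeq2. LM over MFL averages LM CD49a- NK over MFL NK and LM CD49a+ NK over MFL ILC1. Its CD49a+ cells therefore differ in cell type as well as site. All 13 protein-coding members had lower fitted levels in LM than in MFL. The median difference was -0.80 on the log2 scale against -0.10 over all genes, and 6 of the 13 had an unadjusted edgeR p under 0.05. The members are cut from shared precursors, so they are not independent of one another. No share of all genes is given for this p, here or below. mt-Nd2, a membrane subunit of complex I, was at 798, 342 and 317 CPM in MFL NK, 1209, 262 and 394 CPM in MFL ILC1, 246, 70.5 and 327 CPM in LM CD49a- NK and 278, 153 and 326 CPM in LM CD49a+ NK. The highest LM library was above the 2 lowest MFL libraries, and the log2 difference of -1.24 (SE 0.39) was the largest of the members, with an edgeR adjusted p of 0.126. mt-Nd6, the only protein-coding gene of the light strand, had a difference of -1.16 (SE 0.41, edgeR adjusted p = 0.183).

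Of the other complex I members, mt-Nd4l differed by -0.99 (SE 0.37), mt-Nd1 by -0.92 (SE 0.37), mt-Nd4 by -0.85 (SE 0.36), mt-Nd5 by -0.80 (SE 0.42) and mt-Nd3 by -0.39 (SE 0.52) on the log2 scale, with edgeR adjusted p-values of 0.217 to 0.843. mt-Cytb, the cytochrome b of complex III, differed by -0.85 (SE 0.40, edgeR adjusted p = 0.372). The catalytic subunit of complex IV, mt-Co1, was at 5579, 2634 and 2127 CPM in MFL NK and 7876, 1812 and 3112 CPM in MFL ILC1, against 2744, 1149 and 3468 CPM in LM CD49a- NK and 3255, 1416 and 2629 CPM in LM CD49a+ NK. These ranges overlapped, and the difference was -0.65 (SE 0.35, edgeR adjusted p = 0.462).

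mt-Co3 differed by -0.65 (SE 0.38), mt-Co2 by -0.58 (SE 0.39) and mt-Atp8, which overlaps mt-Atp6 by 43 bases on the same strand, by -0.43 (SE 0.43), all on the log2 scale, with edgeR adjusted p-values of 0.511, 0.593 and 0.768. The small-subunit rRNA mt-Rnr1 was at 37177, 14067 and 12180 CPM in MFL NK and 45869, 10012 and 24395 CPM in MFL ILC1, against 15845, 5509 and 27399 CPM in LM CD49a- NK and 22323, 10178 and 17098 CPM in LM CD49a+ NK. These ranges overlapped, and mt-Rnr1 differed by -0.54 (SE 0.40). The large-subunit rRNA mt-Rnr2 differed by -0.42 (SE 0.38), with edgeR adjusted p-values of 0.645 for mt-Rnr1 and 0.729 for mt-Rnr2.

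The size of the LM against MFL difference, and the number of calls, moved with the libraries and the fit. With each library left out in turn, the median over the 12 protein-coding members tested as deposited ranged from -1.27, without LM CD49a- NK replicate 3, to -0.45, without MFL ILC1 replicate 1, where the median over all genes was -0.12. With quality weights in limma-voom on the deposited counts, the median over these members was -0.39 against -0.36 over all genes. Samples were collected in 3 independent sortings, and with the replicate number as a block 3 members with copies (mt-Nd1, mt-Nd2 and mt-Nd5) were called lower among 411 of 14598 genes called by edgeR. Without the filter on low counts, 13 of the 15 members with copies were called lower, where 705 of 21984 genes were called.

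No member was called by edgeR in the comparisons that do not set a LM population against a MFL one, and 0 protein-coding members had an unadjusted p under 0.05 there. For LM CD49a+ NK over LM CD49a- NK the median of the 13 protein-coding members with copies was -0.03 on the log2 scale, and the test called 0.14% of all genes. For MFL ILC1 over MFL NK the median was 0.20, and 3.06% of all genes were called. Without MFL ILC1 replicate 1 the median of the 12 members as deposited changed from 0.22 to -0.63 in this comparison. The interaction of CD49a state and site called 1.03% of all genes and 0 members, with a median of -0.25.

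The comparisons of single LM and MFL populations had similar medians with copies summed. These were -0.67 for LM CD49a- NK over MFL NK, -0.72 for LM CD49a+ NK over MFL NK and -0.96 for LM CD49a+ NK over MFL ILC1. LM CD49a+ NK over MFL NK changes CD49a state as well as site, and LM CD49a+ NK over MFL ILC1 changes cell type as well as site. These comparisons share libraries with one another. With each library left out in turn, the medians as deposited ranged from -1.33 to -0.18 for LM CD49a- NK over MFL NK and from -1.08 to -0.28 for LM CD49a+ NK over MFL NK, both nearest to 0 without MFL NK replicate 1. The lowest edgeR adjusted p of any protein-coding member with its copy in the 3 was 0.272, and 1, 1 and 2 of the 13 had an unadjusted p under 0.05. Without MFL ILC1 replicate 1, the median for LM CD49a+ NK over MFL ILC1, as deposited, changed from -1.04 to -0.16.

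**Figure D3:**
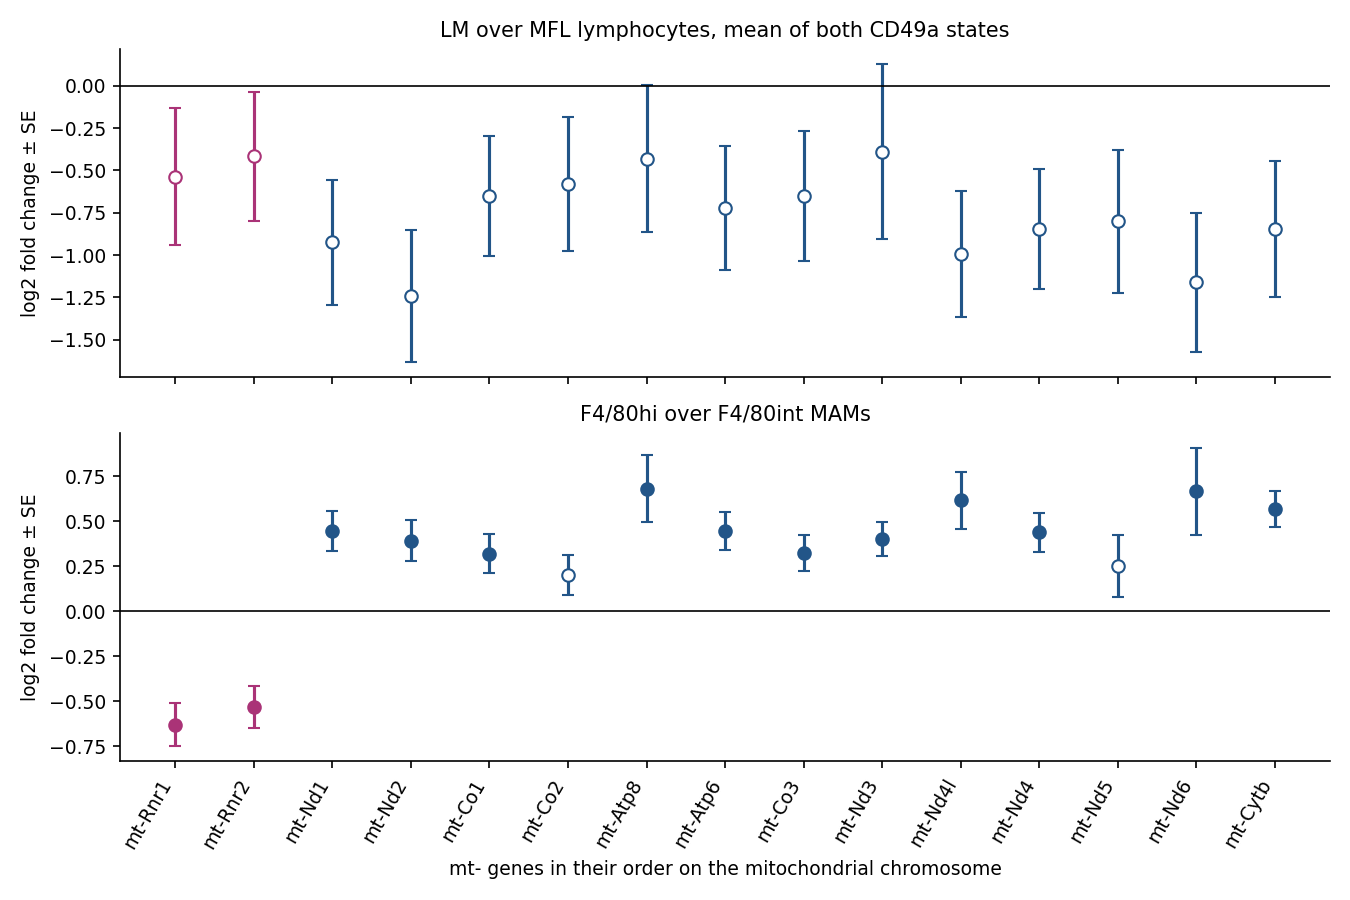
Log2 fold change of each member, in chromosome order, for LM over MFL lymphocytes (top) and F4/80hi over F4/80int MAMs (bottom), members summed with their nuclear copies (points are edgeR estimates, bars 1 SE, filled points called, rRNA in purple). All protein-coding members lie below 0 in the lymphocyte panel with no call, and above 0 in the MAM panel, where the 2 rRNA members lie below 0.

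The mix of protein-coding members shifted less than their total. Per kilobase, mt-Co1 and mt-Atp6 were the highest protein-coding members in lymphocytes, at 2231 and 1973 CPM per kilobase in MFL NK, where mt-Nd3 was lowest at 127. The rRNAs were far higher, with mt-Rnr2 at 27375 and mt-Rnr1 at 22138 CPM per kilobase. Complex I genes made up 33.0% to 34.4% of the protein-coding counts in the 6 MFL libraries and 28.8% to 32.1% in the 6 LM libraries, ranges that did not overlap. Complex IV genes made up 41.3% to 44.6% in MFL and 43.5% to 48.6% in LM, which overlapped. Of the 13 genes, only the share of mt-Nd2 separated the sites, at 4.16%, 4.08% and 4.50% in MFL NK and 4.69%, 4.88% and 4.13% in MFL ILC1, against 2.80%, 2.24% and 3.08% in LM CD49a- NK and 2.94%, 3.65% and 3.94% in LM CD49a+ NK. mt-Nd2 is among the complex I genes, so its separation and that of complex I are not independent. Both were picked out after the values were seen and carry no test.

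**Figure D4:**
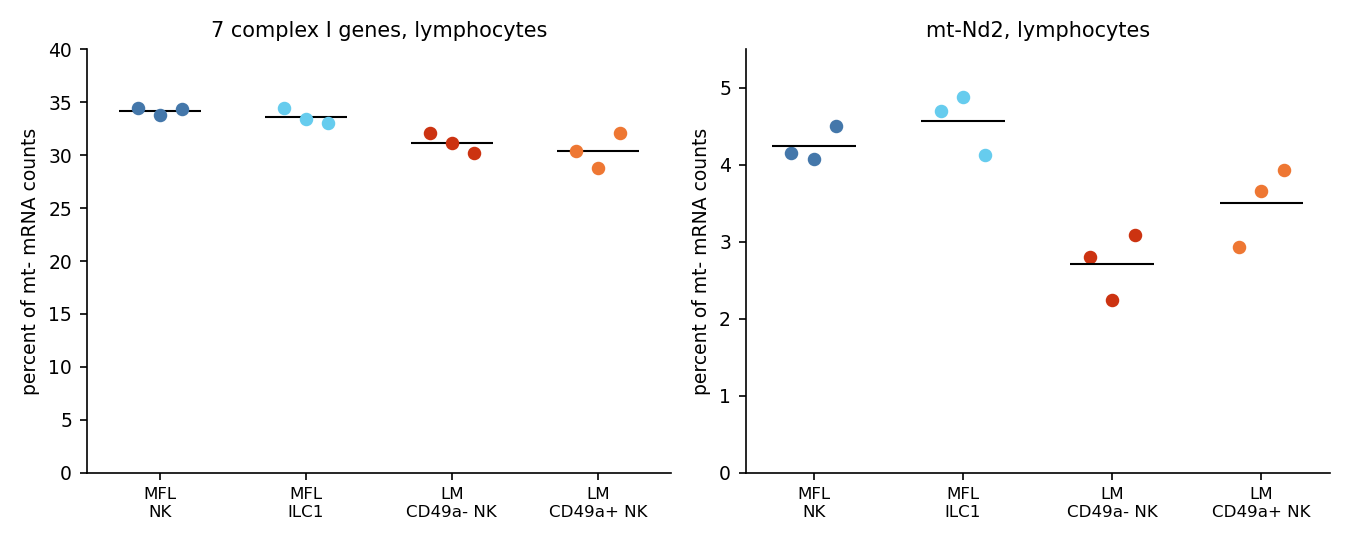
Percent of the protein-coding mitochondrial counts, with nuclear copies, taken by the 7 complex I genes (left) and by mt-Nd2 (right) in each lymphocyte library (points are libraries, horizontal bars are means of 3). Complex I lies at 33.0% to 34.4% in MFL and at 28.8% to 32.1% in LM, and no LM point of mt-Nd2 reaches the lowest MFL point.

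In MAMs, protein-coding mitochondrial RNA was higher and mitochondrial rRNA lower in F4/80hi than in F4/80int cells. As deposited, 10 of the 13 protein-coding members were called higher and 0 lower, beside 27.8% of all genes called higher, and both rRNAs were called lower, beside 27.1% of all genes called lower. In total, 54.9% of the 13759 genes were called. For the same 10 members every F4/80hi library was above every F4/80int library, a pattern shown by 29.8% of all genes. With copies summed, 11 of 13 were called higher, against 27.8% of all genes in that fit, and 12 of 13 did not overlap. The median difference of the 13 was 0.44 on the log2 scale both as deposited and summed, against 0.01 over all genes.

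The clearest single difference was that of mt-Cytb. It was at 857, 993 and 903 CPM in F4/80int and 1481, 1315 and 1293 CPM in F4/80hi, with every F4/80hi library higher. The log2 difference as deposited was 0.57 (SE 0.10, edgeR adjusted p = 0.00211). Its share of the protein-coding counts was 7.20% to 7.49% in F4/80int and 7.98% to 8.98% in F4/80hi, without overlap. The shares of the other 12 protein-coding genes overlapped. With so few libraries per group, the separation of 1 gene among all those examined can arise by chance. The mt-Cytb share was picked out after the values were seen and carries no test. It is not counted as further evidence for the difference in level.

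Both mitochondrial subunits of ATP synthase rose in the edgeR test. mt-Atp6 was at 1540, 1643 and 1603 CPM in F4/80int and 2443, 1976 and 2097 CPM in F4/80hi, a log2 difference of 0.45 (SE 0.11, adjusted p = 0.00922). mt-Atp8 was at 50.4, 66.8 and 52.4 CPM in F4/80int and 116, 70.8 and 85.8 CPM in F4/80hi, a log2 difference of 0.68 (SE 0.18, adjusted p = 0.0157). Neither gene overlapped between the groups, though the nearest libraries of mt-Atp8 were close.

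Of the 7 complex I members, 5 were called higher by edgeR as deposited. mt-Nd1, which forms part of the ubiquinone site, was at 700, 752 and 713 CPM in F4/80int and 1126, 891 and 933 CPM in F4/80hi, with a log2 difference of 0.45 (SE 0.11, adjusted p = 0.0101). mt-Nd2 differed by 0.39 (SE 0.11), mt-Nd4 by 0.44 (SE 0.11), mt-Nd4l by 0.91 (SE 0.24) and mt-Nd6 by 0.67 (SE 0.24), with adjusted p-values of 0.0205, 0.0106, 0.0147 and 0.0493. The deposited mt-Nd4l value moved to 0.62 (SE 0.16) once Gm10222 was added. mt-Nd6 was the lowest member per kilobase, at 11.7 CPM per kilobase in F4/80int and 18.6 in F4/80hi.

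The remaining complex I genes did not pass as deposited. mt-Nd3 had a log2 difference of -0.02 (SE 0.46, edgeR adjusted p = 0.979), but its sum with Gm28438 was 85.3, 79.9 and 75.3 CPM in F4/80int and 117, 103 and 97.9 CPM in F4/80hi. The summed libraries did not overlap, and the difference became 0.40 (SE 0.09, edgeR adjusted p = 0.00799). mt-Nd5 was at 450, 626 and 538 CPM in F4/80int and 660, 502 and 759 CPM in F4/80hi, with overlap, and its difference was 0.25 (SE 0.17, edgeR adjusted p = 0.262).

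Complex IV genes differed by less than most other protein-coding members. mt-Co1, the most abundant member of the MAM table, was at 4062, 4671 and 4401 CPM in F4/80int and 5721, 4970 and 5718 CPM in F4/80hi as deposited, and differed by 0.32 on the log2 scale (SE 0.11, edgeR adjusted p = 0.0396). mt-Co3 differed by 0.40 (SE 0.17, edgeR adjusted p = 0.0833) as deposited and by 0.33 (SE 0.10, edgeR adjusted p = 0.0273) with Gm28437 added. mt-Co2 was at 1449, 1485 and 1599 CPM in F4/80int and 1983, 1611 and 1624 CPM in F4/80hi with Gm28661 added. Its 3 F4/80hi values lay above all F4/80int values by a narrow margin, and the difference of 0.20 (SE 0.11) did not pass the edgeR test (adjusted p = 0.168).

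The rRNA members went the other way. mt-Rnr1 was at 87.9, 88.5 and 99.6 CPM in F4/80int and 70.1, 54.9 and 53.5 CPM in F4/80hi, with a log2 difference of -0.63 (SE 0.12, edgeR adjusted p = 0.0029). mt-Rnr2 was at 152, 178 and 180 CPM in F4/80int and 135, 104 and 114 CPM in F4/80hi, with a difference of -0.53 (SE 0.12, edgeR adjusted p = 0.00661). No F4/80hi library overlapped F4/80int for either gene. These levels are those left after poly(A) selection, and the carry-over of unselected RNA was not measured apart from nuclear rRNA, which took 0.0949% to 0.170% of counts in F4/80int and 0.0883% to 0.172% in F4/80hi.

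**Figure D5:**
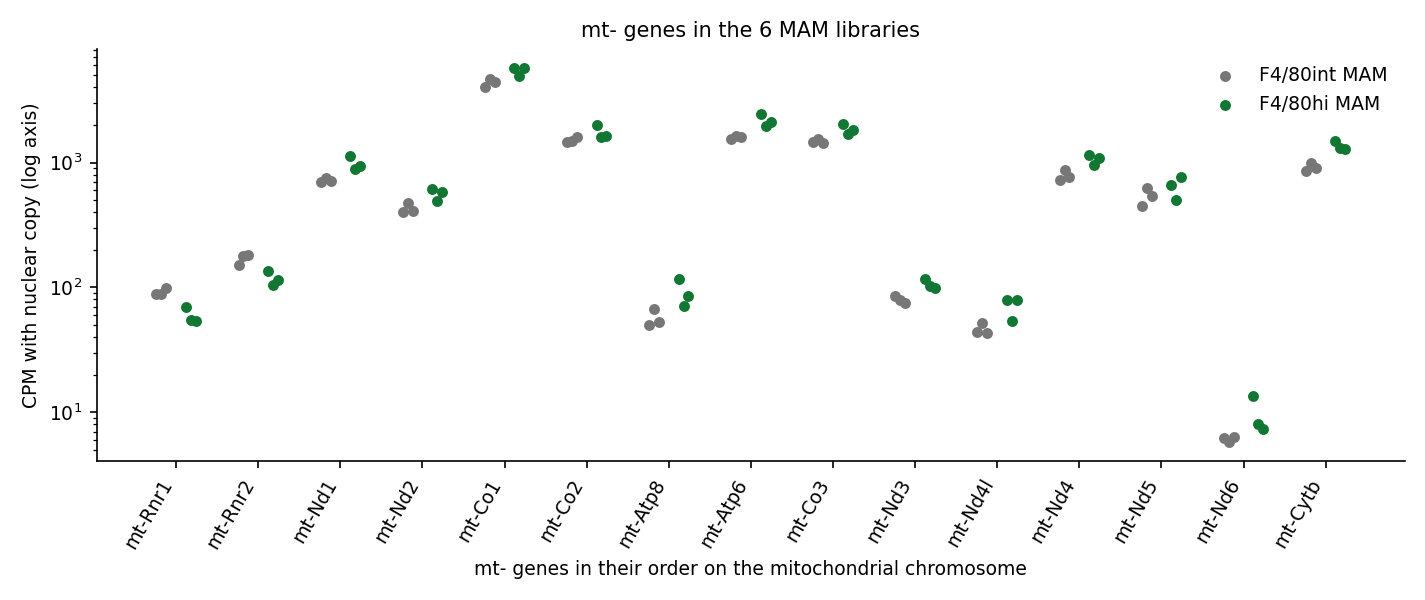
Level of each member in the 6 MAM libraries, in CPM on a log axis, members summed with their nuclear copies and placed in chromosome order (points are libraries, gray for F4/80int and green for F4/80hi). The F4/80hi points lie above the F4/80int points for 12 of 13 protein-coding members and below them for both rRNAs, with mt-Nd5 overlapping.

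Nuclear genes that serve the mitochondrial genome were set beside the members. In lymphocytes, no gene of the nuclear lists (subunits of complexes I, III, IV and V, mitochondrial transcription and RNA processing, mitochondrial translation factors) was called by edgeR in any of the 7 comparisons, and at an unadjusted p under 0.05 each list had 0 to 4 genes per comparison. For LM over MFL these were 1 of 37 complex I genes and 4 of 47 transcription and RNA processing genes. The share of all genes under this p is not given, so these counts have no background beside them. In MAMs, 14 of the 46 transcription and RNA processing genes tested were called higher and 2 lower by edgeR, against 27.8% and 27.1% of all genes. Fastkd3, a mitochondrial RNA-binding protein, rose by 0.94 (SE 0.14, adjusted p = 0.000904), Mrm2, a methyltransferase of mitochondrial rRNA, by 0.91 (SE 0.21, adjusted p = 0.00757), and Mgme1, a mitochondrial DNA exonuclease, by 0.67 (SE 0.16, adjusted p = 0.00949), all log2 differences in the edgeR fit. Hsd17b10, a subunit of mitochondrial RNase P, and Nsun4, a mitochondrial rRNA methyltransferase, fell by 0.40 and 0.36 on the log2 scale.

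Nuclear subunits of the complexes were called in both directions, beside 27.8% of all genes called higher and 27.1% called lower. Each list in this paragraph was called less often than all genes in either direction. In F4/80hi over F4/80int, 5 of 37 complex I subunits were called higher and 4 lower, with a median of 0.03 on the log2 scale. Ndufa12, Ndufab1 and Ndufc1 rose by 0.42, 0.33 and 0.29 on the log2 scale, and Ndufa6, Ndufb1 and Ndufb3 fell by 0.72, 0.56 and 0.37. Of 9 complex III subunits, 0 were called higher and 2 lower (Uqcrh and Uqcrfs1), and of 11 complex IV subunits, Ndufa4 was called higher and Cox7b lower. Of 18 complex V subunits tested, Atp5mc2 was called higher by 0.98 and Atp5f1e, Atp5mg and Atp5pd lower. Of 14 translation factors, Mtrf1l, Guf1 and Mtrfr were called higher and Gfm2 lower.

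Markers and library measures moved with some of these groups. Total counts were 8795721 to 14386834 in lymphocytes and 21278959 to 32267015 in MAMs. Genes with at least 10 counts numbered 9608 to 12601 in the LM lymphocyte libraries and 11651 to 13218 in the MFL libraries. The part of this measure in the site differences was not tested. Ncr1, which encodes NKp46, was at 495 to 1076 CPM in all 12 lymphocyte libraries, and Eomes, a factor of NK cells, was at 7.58 to 40.2 CPM in MFL ILC1 against 500 to 1147 CPM elsewhere. The T-cell list summed to 247 to 681 CPM in MFL ILC1 and to at most 35.7 CPM in the other lymphocytes. Nearly all of the MFL ILC1 sum was Cd3g, at 224 to 668 CPM. Cd3e was at most 0.366 CPM and Cd3d at most 4.83 CPM there. Trac was at 1.42 to 11.6 CPM in MFL ILC1 and reached 10.9 CPM in LM CD49a- NK. Cd4 and Cd8a were at 1.99 to 6.28 CPM in MFL ILC1 and at most 0.236 CPM elsewhere. Adgre1, the gene of F4/80, was at 124 to 160 CPM in F4/80int and 806 to 1167 CPM in F4/80hi. The monocyte list (4 of 4 listed) summed to 1503 to 1530 CPM in F4/80int and 431 to 541 CPM in F4/80hi. The tumor epithelium list (2 of 5 listed, Cdh1 and Epcam) summed to 197 to 281 CPM against 8.30 to 11.8 CPM. Most of that sum was Cdh1, at 189 to 264 CPM in F4/80int, where Epcam was at 7.70 to 17.2 CPM. The keratins of the list (Krt8, Krt18 and Krt19) were not listed. The part of any other cells in the MAM differences was not tested.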

How the data were processed

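The authors prepared lymphocyte libraries with the SMARTer Stranded Total RNA-Seq v2 Pico kit and MAM libraries with the Nextflex Rapid Directional kit and poly(A) beads. Per the labels and methods, they quantified lymphocyte reads with Salmon 1.5.0 against GENCODE transcripts of GRCm39 and the labels name Salmon 1.10.0 and GRCm39 for the MAM reads. The annotation of the MAM table is not given in the sources used here. The deposited values are Salmon's estimated counts per gene, already whole numbers. Salmon divides reads among identical transcripts by a likelihood estimate, so a member and an identical nuclear copy can exchange counts. The lowest gene total in the MAM table was 37, so low genes had been removed there. Of the 54309 lymphocyte and 13759 MAM rows, 53700 and 13726 carried a gene symbol, and the others were kept under their identifiers.

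Each table was fitted separately over all its genes with edgeR 4.0.16 in R 4.3.3 (TMM scaling, filterByExpr, quasi-likelihood F-test, 1 model over all 4 lymphocyte groups). Genes were called at a Benjamini-Hochberg adjusted p under 0.1. The script was tested on simulated counts. Nuclear copies were found with blastn 2.17.0 as annotated genes matching a member over at least 100 bases at 95% identity or more, and were summed with the member where they covered at least 80% of it at 99% identity or more. Positions and sequences come from GRCm39. Summing was chosen after the data were seen. Members and gene lists were chosen with earlier results of these data known. All members are described, and of the nuclear lists up to 3 called genes per direction are named. The planned permutation tests of mitochondrial shares are not printed, since shares over chosen members carry no p. Alternatives were DESeq2 1.42.0, limma-voom 3.58.1 with quality weights, other scaling and filters, a replicate block, and leaving out each library. Groups of 3 are too small for an outlier rule.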

Additional observations from a re-analysis of the deposited data

How the results depend on the processing

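Calls of members in lymphocytes depended on the handling of nuclear copies and of low counts. As deposited, 1 member (mt-Atp6) was called in each of LM CD49a- NK over MFL NK, LM CD49a+ NK over MFL NK, LM CD49a+ NK over MFL ILC1 and LM over MFL, and 0 in the other 3 comparisons. With copies summed the count was 0 in all 4, also with DESeq2 or without MFL NK replicate 1, MFL ILC1 replicate 1 and LM CD49a- NK replicate 3 together. Without the filter on low counts it was 2, 9, 11 and 12 in these 4 as deposited, with 158, 371, 774 and 710 of 21988 genes called. It was then 1 in both LM CD49a+ NK over LM CD49a- NK and the interaction, with 200 and 264 genes called. Also without the filter, but with copies summed, it was 1, 6, 11 and 13 in the 4. limma-voom called 1 member (mt-Co3) in MFL ILC1 over MFL NK. The cause was not tested beyond the summing itself.

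Over all tested genes, lymphocyte samples with the same replicate number did not deviate together (correlations of -0.045 to 0.098 over 18 pairs, with 0 over 0.1). Of 3 such MAM pairs, 1 was over 0.1 (range -0.0145 to 0.172, against -0.123 to 0.0907 for MAM pairs of unlike number). Nuclear rRNA was 0.170% and 0.172% of counts in the replicate 3 MAM libraries and 0.0883% to 0.107% in the others. The MAM values given above come from a fit without a replicate block. In lymphocytes, the protein-coding mitochondrial share followed the number in part. It was lowest in replicate 2 of LM CD49a- NK, LM CD49a+ NK and MFL ILC1, and highest in replicate 1 of MFL NK, MFL ILC1 and LM CD49a+ NK. Which number belongs to which of the 3 sortings is not stated in the sources used. With a replicate block the count was 2 in LM CD49a+ NK over MFL ILC1 and 4 in LM over MFL, where mt-Nd1, mt-Nd2 and mt-Nd5 joined mt-Atp6 (509 and 412 of 14602 genes called), and 3 in LM over MFL with copies summed.

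Leaving out each library gave 1 to 2 called members in LM CD49a+ NK over MFL NK, LM CD49a+ NK over MFL ILC1 and LM over MFL, with mt-Nd3 added without LM CD49a+ NK replicate 2 and mt-Nd2 added in LM over MFL without LM CD49a- NK replicate 3 or MFL ILC1 replicate 2. Medians of the protein-coding members as deposited ranged from -0.63 to 0.80 in MFL ILC1 over MFL NK, from -1.43 to -0.16 in LM CD49a+ NK over MFL ILC1 and from -0.88 to 0.54 in the interaction, and MFL ILC1 replicate 1 moved each most. MFL NK replicate 1, MFL ILC1 replicate 1 and LM CD49a- NK replicate 3 had the highest share in their populations. Leaving out the MFL libraries draws the sites closer by that choice. Leaving out the LM library alone moved them apart (LM over MFL median of -1.27 against -0.89 with all libraries, as deposited). LM CD49a+ NK over MFL NK and LM CD49a+ NK over MFL ILC1 lose only an MFL library when all of these are left out together. The median was then -0.15 in LM CD49a+ NK over MFL ILC1 as deposited, and with copies summed -0.095 in LM CD49a+ NK over MFL NK, -0.0061 in LM CD49a+ NK over MFL ILC1 and 0.46 in the interaction. In MAMs, 9 to 12 members were called under every library left out, with medians of 0.34 to 0.51.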
